A study of Mus musculus with 9 samples.

Results

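Astrocytes respond to injury, infection and cytokines by becoming reactive, a state in which they enlarge, rebuild their cytoskeleton and secrete proteins that act on neurons, vessels and immune cells. One well-studied route starts at receptors that share the gp130 chain, among them the oncostatin M receptor, and runs through JAK kinases to the transcription factor STAT3, which drives Gfap and other reactive genes. In rodent hippocampus, GFAP is also abundant in unchallenged astrocytes.

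The genes described here are 7 that are widely used as marks of this state, out of 14779 genes in the deposited table. They were chosen by name and found by Ensembl identifier, and all 7 of 7 were present and passed the filter on low counts. By role they are Osmr, a cytokine receptor chain that pairs with gp130; Stat3, the transcription factor downstream of it; Gfap and Vim, which encode the intermediate filament proteins GFAP and vimentin; Serpina3n, which encodes a secreted serine protease inhibitor; Sphk1, which encodes a kinase that makes sphingosine-1-phosphate; and Cd44, which encodes a surface receptor for hyaluronan. None of the 7 is made by astrocytes alone: Vim and Cd44 are also expressed in vascular and meningeal cells, and Stat3 in most cell types.

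The study measured polyadenylated RNA of hippocampus by stranded RNA-seq in 3 groups of mice, with 3 libraries each. CIE+IL17 Ab mice went through CIE, the usual abbreviation for chronic intermittent ethanol exposure, and received an antibody against the cytokine IL-17A. CIE+IgG mice went through the same exposure and received a control IgG, and Air+IgG mice were kept in air and received the control IgG, so no group went without an injected antibody. The labels used here do not give strain, genotype, sex, age, antibody dose or the length of exposure. The libraries held 7372658 to 11894628 expected counts. Levels are given as CPM, counts scaled to a common library size, after TMM scaling, which also corrects for library composition, and every adjusted p comes from edgeR's quasi-likelihood test over 14696 genes with Benjamini-Hochberg adjustment, with 0.05 as the threshold.

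The CIE+IL17 Ab libraries differed from both IgG groups in markers of brain region. A list of 11 thalamus and habenula markers summed to 1134 to 1953 CPM in CIE+IL17 Ab libraries, against 226 to 390 CPM in CIE+IgG libraries and 170 to 250.6 CPM in Air+IgG libraries. Of these 11, 9 were called higher in CIE+IL17 Ab against CIE+IgG and 11 against Air+IgG. Of all genes, 3.18% and 13.5% were called in either direction. Pou4f1, a habenula transcription factor, had 82, 112 and 53 counts in the CIE+IL17 Ab libraries, and 0, 0 and 1 count in both the CIE+IgG and the Air+IgG libraries. A list of CA1 pyramidal neuron markers, of which 9 were tested, summed to 135 to 272 CPM in CIE+IL17 Ab libraries, against 404 to 503 CPM in CIE+IgG libraries and 531 to 591 CPM in Air+IgG libraries. A list of 10 hippocampal excitatory neuron markers summed to 821 to 3488 CPM in CIE+IL17 Ab libraries, against 3402 to 5666 CPM in CIE+IgG libraries and 4027 to 6982 CPM in Air+IgG libraries. None of the hippocampal markers tested was at 0 in any library. Every difference of the CIE+IL17 Ab group below stands beside this difference in regional markers; with all 3 antibody libraries on the same side, the region held by the samples and the treatment cannot be told apart. In addition, Lars2 took 7.13% of the counts of Air+IgG library 2 and 6.72% of those of CIE+IL17 Ab library 1, against at most 0.021% in the other libraries, and results without these 2 libraries are given below where a call of one of the 7 genes changes. Markers of striatum, 11 genes, summed to 837 CPM in CIE+IL17 Ab library 3 and 1319 CPM in CIE+IgG library 3, against 250 to 278 CPM in the other 7 libraries.

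The summed level of 20 general astrocyte markers overlapped between the groups, at 8771 to 11317 CPM in CIE+IL17 Ab libraries, 10027 to 11023 CPM in CIE+IgG libraries and 10764 to 11024 CPM in Air+IgG libraries. The sum hides unequal members. Slc1a2, the main astrocytic glutamate transporter, averaged 3670 ± 531 CPM in CIE+IL17 Ab libraries, 5177 ± 499 CPM in CIE+IgG libraries and 5768 ± 142 CPM in Air+IgG libraries (SD, n = 3 each), and Glul, glutamine synthetase, averaged 1803 ± 455 CPM in CIE+IL17 Ab libraries, 1708 ± 126 CPM in CIE+IgG libraries and 1700 ± 74.2 CPM in Air+IgG libraries (SD, n = 3 each). Against CIE+IgG, 3 of the 20 were called higher in CIE+IL17 Ab (Kcnj10, Gja1 and Atp1b2) and 0 lower. Of all genes, 3.18% were called in either direction and 1.41% lower. The list median log2 fold change was 0.30, with 18 of 20 above 0. Against Air+IgG, 13.5% of all genes were called in either direction and 6.71% lower. There the median was 0.29, with 17 of 20 above 0, and 3 were called higher (Kcnj10, Atp1b2 and Slc7a10) and 1 lower. The one called lower was Slc1a2 (log2 fold change -0.65, edgeR adjusted p = 0.0185), a call lost without CIE+IL17 Ab library 2 or any 1 Air+IgG library (edgeR adjusted p 0.0568 to 0.0750), and without the 2 libraries rich in Lars2. The call of Slc7a10 was kept in 2 of the 9 fits with 1 library left out. Kcnj10, an inwardly rectifying potassium channel named after its values were seen, averaged 278 ± 44.4 CPM in CIE+IL17 Ab libraries and 111 ± 9.73 CPM in CIE+IgG libraries (SD, n = 3 each; log2 fold change 1.32, SE 0.13, edgeR adjusted p = 0.0118), a call that was lost without CIE+IgG library 1 or 2 (edgeR adjusted p 0.0550 to 0.106). Against CIE+IgG, the calls of Atp1b2 and Gja1 were kept in 4 and 1 of 9 fits without 1 library. Against Air+IgG, those of Kcnj10 and Atp1b2 were each kept in 8 of 9. A list of 14 microglia markers summed to 356 to 376 CPM in CIE+IL17 Ab libraries, 439 to 465 CPM in CIE+IgG libraries and 417 to 487 CPM in Air+IgG libraries. In each comparison of the CIE+IL17 Ab group, 13 of the 14 had a log2 fold change below 0. Of the 14, 2 were called lower against CIE+IgG and 3 against Air+IgG, where 1.41% and 6.71% of all genes were called lower. The 2 calls against CIE+IgG were kept in 3 and 2 of 9 fits without 1 library. In whole tissue, fewer cells of a type and less RNA per cell cannot be told apart.

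**Figure D1:**
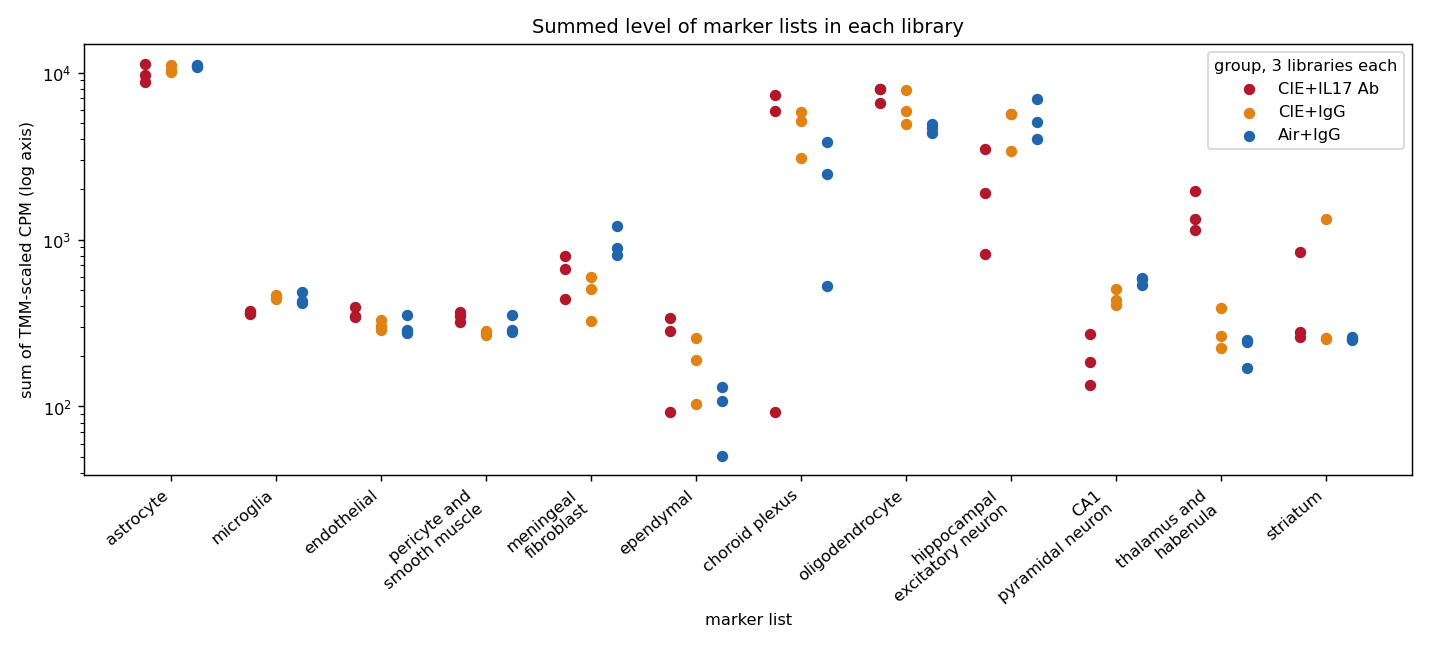
Summed TMM-scaled CPM of 12 marker lists (log axis) in each library, with 3 points per group. The CIE+IL17 Ab points lie above both IgG groups for the thalamus and habenula list, at 1134 to 1953 CPM, and below them for the CA1 list, at 135 to 272 CPM, while the astrocyte sums overlap.

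Ranked by mean CPM per kilobase of merged exon length, so that levels can be set side by side between genes, Gfap came first at 73.8 ± 13.4 CPM per kb (SD over 9 libraries) and stood above 96.6% of the genes tested. Serpina3n followed at 16.5 ± 5.35, Vim at 10.1 ± 2.08 and Stat3 at 6.82 ± 0.876 CPM per kb. Cd44 at 1.01 ± 0.338, Osmr at 0.882 ± 0.125 and Sphk1 at 0.559 ± 0.242 CPM per kb were low, with Sphk1 above only 5.78% of genes. Genes without a matched identifier had no exon length and were counted as above every member in these shares. In this order, the library ranges of Serpina3n and Vim overlapped, as did those of Vim and Stat3, of Cd44 and Osmr, and of Osmr and Sphk1, whereas Gfap lay above Serpina3n and Stat3 above Cd44 in all 9 libraries. The coefficient of variation over the 9 libraries was 43.3% for Sphk1, 33.4% for Cd44 and 32.4% for Serpina3n, against 12.8% for Stat3 and 14.2% for Osmr, and a median of 16.1% over all genes tested.

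CIE+IL17 Ab against CIE+IgG asks what the antibody did during alcohol exposure. Serpina3n fell to 0.488 of its CIE+IgG level and was the 1 member that passed the threshold; Gfap was also below CIE+IgG in every antibody library but missed the threshold. Sphk1, Cd44 and Stat3 had all 3 CIE+IL17 Ab libraries above all 3 CIE+IgG libraries, also without passing. The 1 member called stands against a background of 3.18% of all genes called (1.41% called lower). Of the 7, 3 were higher and 2 lower without overlap of the groups, where 12.7% of all genes were higher and 13.2% lower without overlap. The members' median log2 fold change was 0.10, beside 0.015 over all genes. The number of genes called rested on single libraries: 468 in the fit of all 9 libraries, it was 0 without CIE+IgG library 1, 22 or fewer without CIE+IgG library 2, CIE+IL17 Ab library 2 or Air+IgG library 1 or 3, 223 without Air+IgG library 2, 715 without CIE+IgG library 3 and 1313 without CIE+IL17 Ab library 3.

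CIE+IL17 Ab against Air+IgG sets the treated animals beside unexposed ones, and uses the same antibody libraries as the comparison above. Serpina3n was again lower and again the member that passed. The background was larger here, with 13.5% of all genes called and 6.71% called lower. Serpina3n was also the member whose groups did not overlap, among 18.1% of all genes that were lower without overlap. The members' median log2 fold change was -0.12, beside 0.012 over all genes. The 1990 genes called became 0 without Air+IgG library 3, 218 without CIE+IL17 Ab library 2, 336 and 478 without Air+IgG libraries 2 and 1, and 1122 without CIE+IgG library 1.

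CIE+IgG against Air+IgG asks what alcohol exposure did under control IgG. None of the 7 genes passed, and edgeR called 0% of all genes; 2.76% of genes had an unadjusted p under 0.05, DESeq2 called 6 genes, none of them a member, and limma-voom called 0. Sphk1 had the lowest p of the 7, at rank 10 of 14696, and was the member whose groups did not overlap, among 4.8% of genes lower without overlap. The members' median log2 fold change was -0.03, beside -0.0073 over all genes.

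**Figure D2:**
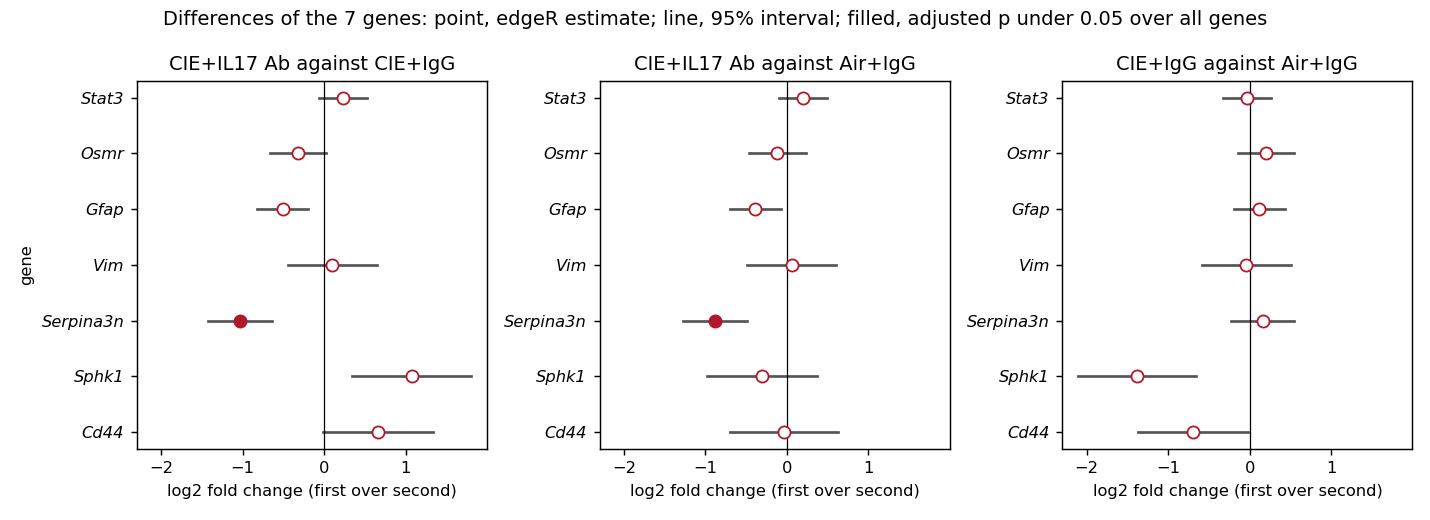
Log2 fold change of each gene (horizontal axis) in the 3 comparisons, as edgeR's estimate with its 95% interval; filled points passed an adjusted p of 0.05 over all genes. Serpina3n is filled in both comparisons of the CIE+IL17 Ab group, at -1.04 and -0.88, and no point is filled in CIE+IgG against Air+IgG.

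Among the upstream members, Osmr lies at chr15:6813577-6874969 on the minus strand (GRCm38, as are all gene coordinates here). Osmr was at 9.31, 8.92 and 10.7 CPM in CIE+IL17 Ab libraries 1 to 3, at 9.99, 12.1 and 13.9 CPM in CIE+IgG libraries and at 9.86, 10.5 and 11.0 CPM in Air+IgG libraries. The groups overlapped in all 3 comparisons, with the widest spread in CIE+IgG. Its log2 fold change was -0.32 (SE 0.15, edgeR adjusted p = 0.260) in CIE+IL17 Ab against CIE+IgG, -0.12 against Air+IgG, and 0.20 in CIE+IgG against Air+IgG. With 1 library left out in turn, the first lay between -0.43 and -0.20, the second between -0.21 and -0.067, and the third between 0.076 and 0.31.

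Stat3 lies at chr11:100885098-100939540 on the minus strand. It was at 74.4, 67.9 and 72.6 CPM in CIE+IL17 Ab libraries, at 59.0, 59.6 and 64.4 CPM in CIE+IgG libraries and at 53.1, 76.8 and 57.5 CPM in Air+IgG libraries. All 3 CIE+IL17 Ab values were above those of CIE+IgG, while the highest value of all came from Air+IgG library 2. The log2 fold change was 0.23 against CIE+IgG (SE 0.13, 95% interval -0.06 to 0.52, edgeR adjusted p = 0.335) and 0.20 against Air+IgG, and was -0.03 in CIE+IgG against Air+IgG. The value against Air+IgG was 0.093 without Air+IgG library 1 and 0.36 without Air+IgG library 2 (edgeR adjusted p = 0.0662). The 95% intervals of Stat3 included 0 in all 3 comparisons. They concern the transcript; phosphorylation of STAT3, on which its activity depends, is not measured by RNA-seq.

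Gfap lies at chr11:102887336-102900912 on the minus strand. Its level was 298, 213 and 241 CPM in CIE+IL17 Ab libraries, 362, 368 and 336 CPM in CIE+IgG libraries and 317, 374 and 291 CPM in Air+IgG libraries. Every CIE+IL17 Ab value was below every CIE+IgG value, but CIE+IL17 Ab library 1 was above the lowest Air+IgG library. Gfap averaged 250 ± 43.3 CPM in CIE+IL17 Ab libraries, 356 ± 16.8 CPM in CIE+IgG libraries and 327 ± 42.4 CPM in Air+IgG libraries (SD, n = 3 each). The log2 fold change was -0.51 against CIE+IgG (SE 0.14, 95% interval -0.82 to -0.19, edgeR adjusted p = 0.0788) and -0.39 against Air+IgG (SE 0.14, adjusted p = 0.0946), so Gfap passed in neither comparison. Of 9 fits with 1 library left out, Gfap passed in 1 in each comparison, the fit without CIE+IL17 Ab library 1. There, edgeR adjusted p was 0.0384 against CIE+IgG and 0.0281 against Air+IgG, while in the rest it reached 0.248 and 0.262. Without both libraries rich in Lars2 Gfap also passed, with 0.0275 and 0.0480. DESeq2 called it against CIE+IgG (adjusted p = 0.0159) and not against Air+IgG (0.0573). Counting these, Gfap was called in 3 of 11 other settings against CIE+IgG and in 1 of 11 against Air+IgG. With only the 2 compared groups in the fit, edgeR adjusted p was 0.150 and 0.155. CIE+IgG differed from Air+IgG by 0.12 (95% interval -0.19 to 0.43).

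Divided by the summed astrocyte markers of the same library, Gfap came to 2.63%, 2.43% and 2.49% in CIE+IL17 Ab libraries, 3.52%, 3.34% and 3.36% in CIE+IgG libraries and 2.94%, 3.40% and 2.64% in Air+IgG libraries. On this scale too, all 3 CIE+IL17 Ab libraries were below all 3 CIE+IgG libraries, and they were also below the 3 Air+IgG libraries. The marker sum is itself mostly Slc1a2 and Glul, whose values are given above.

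Vim lies at chr2:13573927-13582826 on the plus strand. Vim was at 35.6, 56.1 and 56.96 CPM in CIE+IL17 Ab libraries, at 46.1, 36.8 and 56.1 CPM in CIE+IgG libraries and at 40.4, 61.6 and 41.4 CPM in Air+IgG libraries. Low and high libraries occurred in each group, and the means were 49.6 ± 12.1 CPM in CIE+IL17 Ab, 46.3 ± 9.68 CPM in CIE+IgG libraries and 47.8 ± 12.0 CPM in Air+IgG libraries (SD, n = 3 each). The log2 fold change against CIE+IgG was 0.10 (95% interval -0.45 to 0.65, edgeR adjusted p = 0.855), an interval that spans both directions. The 2 filament genes thus gave different values in the same libraries: the highest Vim level was in Air+IgG library 2, as for Gfap, but the lowest Vim level was in CIE+IL17 Ab library 1, which had the highest Gfap of its group. Both are the libraries rich in Lars2. Without these 2 libraries, the Vim log2 fold change of CIE+IL17 Ab was 0.28 against CIE+IgG and 0.47 against Air+IgG, and neither passed.

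**Figure D3:**
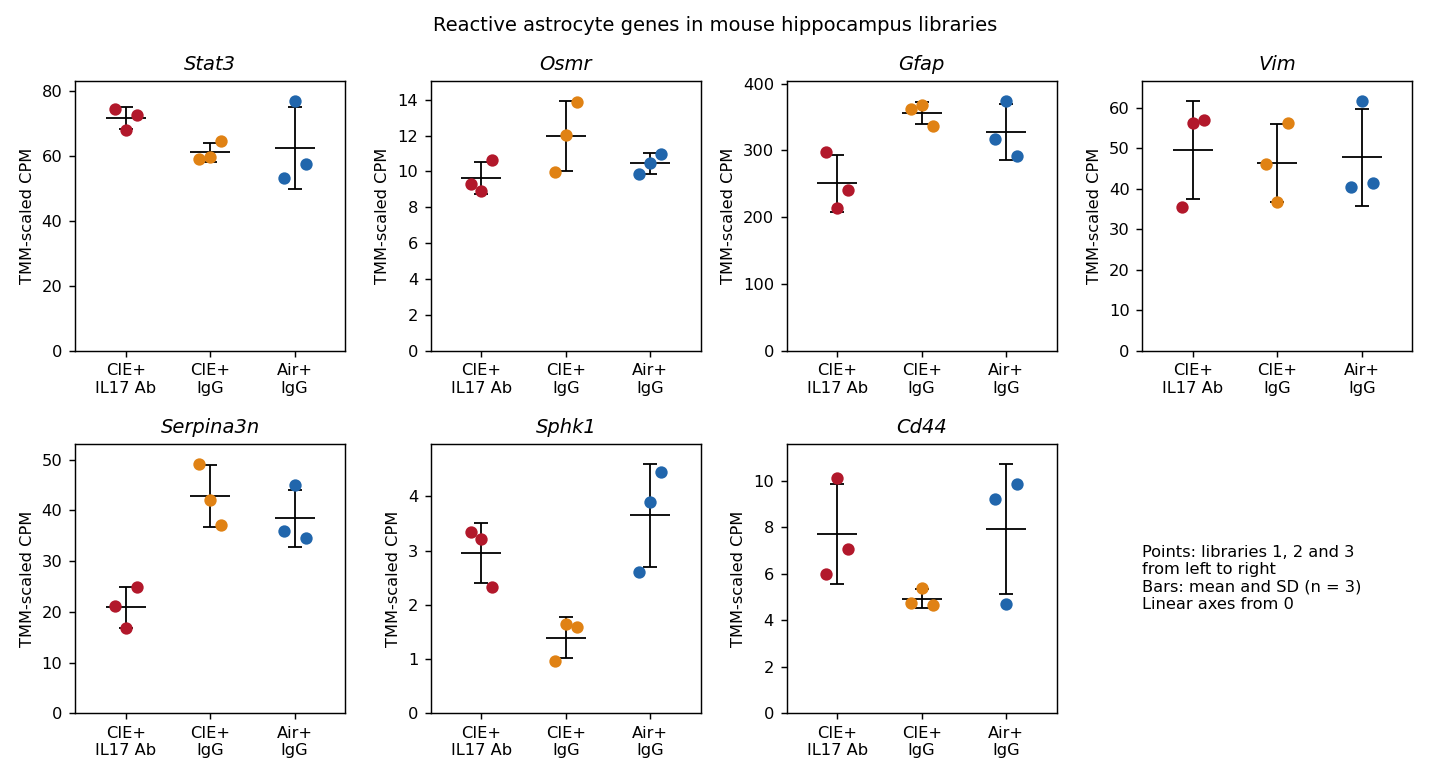
TMM-scaled CPM (linear axis from 0) of each gene in libraries 1, 2 and 3 of each group, with the mean and SD (n = 3). The 3 CIE+IL17 Ab points of Serpina3n, at 16.7 to 24.9 CPM, lie below all other points, and the 3 CIE+IgG points of Sphk1, at 0.967 to 1.64 CPM, lie below all other points.

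Serpina3n lies at chr12:104406729-104414329 on the plus strand, in a cluster of closely related inhibitor genes. Its level was 21.1, 16.7 and 24.9 CPM in CIE+IL17 Ab libraries, 49.2, 42.1 and 37.1 CPM in CIE+IgG libraries and 35.9, 44.9 and 34.5 CPM in Air+IgG libraries. The highest CIE+IL17 Ab library was below the lowest library of either IgG group. Serpina3n averaged 20.9 ± 4.08 CPM in CIE+IL17 Ab libraries, 42.8 ± 6.07 CPM in CIE+IgG libraries and 38.4 ± 5.67 CPM in Air+IgG libraries (SD, n = 3 each).

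Serpina3n fell against CIE+IgG to a fitted 0.488 of the CIE+IgG level (log2 fold change -1.04, SE 0.17, 95% interval -1.43 to -0.64, edgeR adjusted p = 0.0264). It also fell against Air+IgG, to 0.544 of the Air+IgG level (log2 fold change -0.88, SE 0.17, edgeR adjusted p = 0.0183). CIE+IgG differed from Air+IgG by 0.16 (SE 0.17, 95% interval -0.23 to 0.54), which did not pass. The call against CIE+IgG was lost without CIE+IL17 Ab library 2, CIE+IgG library 1 or 2, or Air+IgG library 1 or 3, with edgeR adjusted p between 0.0587 and 0.136. The call against Air+IgG was lost without CIE+IL17 Ab library 2 or any 1 of the 3 Air+IgG libraries (edgeR adjusted p 0.0517 to 0.0658). With the 2 compared groups alone in the fit, Serpina3n did not pass against CIE+IgG (edgeR adjusted p = 0.0949) and passed against Air+IgG (0.0352). Without both libraries rich in Lars2, it passed against CIE+IgG (edgeR adjusted p = 0.0408) and not against Air+IgG (edgeR adjusted p = 0.0619). Its log2 fold change stayed between -1.19 and -0.90 against CIE+IgG and between -1.03 and -0.74 against Air+IgG when 1 library was left out.

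As a percentage of the summed astrocyte markers, Serpina3n was 0.187%, 0.191% and 0.257% in CIE+IL17 Ab libraries, 0.478%, 0.382% and 0.370% in CIE+IgG libraries and 0.333%, 0.408% and 0.313% in Air+IgG libraries, and CIE+IL17 Ab again did not overlap either IgG group. Within the 3 libraries numbered 37 to 39 in the labels, 1 per group, the log2 ratio of CIE+IL17 Ab to CIE+IgG was -1.15, and within the 6 libraries numbered 54 to 60, 2 per group, it was -0.99; what the numbers stand for is not given. In a fit of the 6 libraries alone Serpina3n did not pass (edgeR adjusted p = 0.151 against CIE+IgG and 0.130 against Air+IgG). Serpina3n was the only one of the 11 genes listed for the Serpina3 cluster in the analysed table. Reads that near-identical copies share were divided by the authors' expected counts, so its absolute level is uncertain to that extent.

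Sphk1 lies at chr11:116530925-116536674 on the plus strand and rests on few reads. It had 24, 41 and 22 counts in CIE+IL17 Ab libraries, 9, 14 and 17 in CIE+IgG libraries and 24, 29 and 47 in Air+IgG libraries. The corresponding levels were 3.34, 3.21 and 2.32 CPM in CIE+IL17 Ab libraries, 0.967, 1.64 and 1.58 CPM in CIE+IgG libraries and 2.6003, 3.90 and 4.45 CPM in Air+IgG libraries. CIE+IgG was below both other groups without overlap, and the CIE+IL17 Ab and Air+IgG libraries overlapped.

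CIE+IgG differed from Air+IgG in Sphk1 by a log2 fold change of -1.38 (SE 0.32, 95% interval -2.10 to -0.66, unadjusted p = 0.00195), with edgeR's adjusted p at 0.9997 over all genes. CIE+IL17 Ab differed from CIE+IgG by 1.07 (SE 0.32, 95% interval 0.34 to 1.80, edgeR adjusted p = 0.1002) and from Air+IgG by -0.31 (95% interval -0.98 to 0.37). Neither comparison passed the threshold. Both of the larger values use the same 3 CIE+IgG libraries. Within libraries 37 to 39, 1 per group, the log2 ratio of CIE+IgG to Air+IgG was -1.49, and within libraries 54 to 60 it was -1.32. In a fit of libraries 54 to 60 alone Sphk1 did not pass. Between these 2 sets the same ratio changed sign for Vim (0.44 and -0.30) and Stat3 (0.16 and -0.13). It kept its sign for Gfap, Serpina3n, Osmr and Cd44.

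Cd44 lies at chr2:102811141-102901665 on the minus strand. Cd44 was at 5.98, 10.1 and 7.07 CPM in CIE+IL17 Ab libraries, at 4.73, 5.38 and 4.66 CPM in CIE+IgG libraries and at 9.21, 4.71 and 9.85 CPM in Air+IgG libraries. The CIE+IgG libraries were close together and below all 3 CIE+IL17 Ab libraries, while Air+IgG library 2 was as low as CIE+IgG. The log2 fold change was 0.66 in CIE+IL17 Ab against CIE+IgG (SE 0.30, 95% interval -0.01 to 1.34, edgeR adjusted p = 0.233), and 0.41 without CIE+IL17 Ab library 2. It was -0.70 in CIE+IgG against Air+IgG (SE 0.30, unadjusted p = 0.0447, edgeR adjusted p = 0.9997) and -0.04 in CIE+IL17 Ab against Air+IgG. Sphk1 and Cd44 were the 2 members with an unadjusted p under 0.05 between CIE+IgG and Air+IgG, both lower in CIE+IgG. Of all genes, 2.76% had such a p, and edgeR called 0 after adjustment.

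Promoter windows of RefSeq (GRCm38.p6, from 250 bases before to 50 bases after each annotated start) were found for 7 of 7 genes, 11 windows in all because Sphk1 has several starts. Shown are those of Serpina3n, the member that passed, of Gfap, the member with the next lowest p against CIE+IgG, and of Sphk1, the member with the lowest p for alcohol exposure. Capitals mark matches on either strand to TTCNNNGAA (the STAT motif), TGANTCA (the AP-1 motif) or GGGNNNNNCC (the NF-kB motif), the letters searched, and overlapping matches run together. The windows are at chr12:104406458-104406757 for Serpina3n (plus strand), chr11:102897151-102897450 for Gfap (minus strand) and chr11:116531587-116531886 for Sphk1 (plus strand).
Serpina3n: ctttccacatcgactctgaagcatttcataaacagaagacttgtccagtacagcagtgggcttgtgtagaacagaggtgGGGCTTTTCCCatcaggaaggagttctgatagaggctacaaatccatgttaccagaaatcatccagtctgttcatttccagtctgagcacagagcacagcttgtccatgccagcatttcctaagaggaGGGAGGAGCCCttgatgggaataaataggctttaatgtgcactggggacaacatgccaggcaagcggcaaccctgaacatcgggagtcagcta
Gfap: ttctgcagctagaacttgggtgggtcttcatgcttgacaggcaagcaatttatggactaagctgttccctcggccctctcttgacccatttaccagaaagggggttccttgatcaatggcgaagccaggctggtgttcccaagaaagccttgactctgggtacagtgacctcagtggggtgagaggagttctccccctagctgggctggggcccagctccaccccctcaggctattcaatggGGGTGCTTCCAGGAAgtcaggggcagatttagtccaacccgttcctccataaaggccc
Sphk1: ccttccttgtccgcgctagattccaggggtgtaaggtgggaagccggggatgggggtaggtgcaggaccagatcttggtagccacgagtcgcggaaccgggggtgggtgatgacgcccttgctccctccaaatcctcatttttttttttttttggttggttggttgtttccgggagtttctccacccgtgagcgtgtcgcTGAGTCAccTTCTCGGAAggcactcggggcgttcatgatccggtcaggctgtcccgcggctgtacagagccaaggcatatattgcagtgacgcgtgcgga

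The STAT letters occurred in 3 of the 11 windows, 1 of Gfap and 2 overlapping ones of Sphk1 that share the same site, and in 8.30% of the 32851 windows of all genes. In the Gfap window the match TTCCAGGAA begins at position -2 and shares 4 bases with an NF-kB match that begins at -8, counting the first transcribed base as 1. The Sphk1 window shown holds TTCTCGGAA at -41, and the AP-1 letters TGAGTCA at -50. It was picked because it holds these matches; of the 5 Sphk1 windows, the first and the last 2 hold neither. AP-1 letters were found in 3 of the 11 windows, the same 2 of Sphk1 and that of Osmr, and in 7.81% of all windows. NF-kB letters were present in 9 of the 11 windows, and in 50.8% of all windows, and the CRE letters TGACGTCA in 0 of the 11 and in 1.79% of all windows. These are matches of letters, not measured binding.

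Beyond the 7 genes, 13 pan-reactive astrocyte genes were listed, which rise in many kinds of injury and of which 5 are members; 11 were tested. Of the 11, 0 were called higher and 1 lower, Serpina3n, in each comparison of the CIE+IL17 Ab group, and 0 in CIE+IgG against Air+IgG. Called lower were 1.41% of all genes against CIE+IgG and 6.71% against Air+IgG. The median log2 fold change of the 11 was 0.17 in CIE+IL17 Ab against CIE+IgG, 0.06 against Air+IgG and 0.0039 in CIE+IgG against Air+IgG, with 7, 6 and 6 of the 11 above 0. Cp, which encodes the copper-carrying ferroxidase ceruloplasmin, averaged 27.8 ± 3.91 CPM in CIE+IgG libraries and 35.8 ± 7.64 CPM in Air+IgG libraries (SD, n = 3 each), a log2 fold change of -0.36 that did not pass. The called gene is a member, so the rest of the list added no call.

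Of the genes reported to be induced by neuroinflammation (A1-type), 12 of 13 were tested. In CIE+IL17 Ab against CIE+IgG, 7 were above and 5 below 0, with a median log2 fold change of 0.11. Against Air+IgG, 6 were above and 6 below 0, with a median of 0.08. In CIE+IgG against Air+IgG, 3 were above and 9 below 0, with a median of -0.09. Fbln5, an elastic fibre protein, was called higher in CIE+IL17 Ab, at 12.0 ± 3.79 CPM, against 4.56 ± 1.24 CPM in CIE+IgG libraries (SD, n = 3 each; log2 fold change 1.39, edgeR adjusted p = 0.0448). Against Air+IgG, Fbln5 (log2 fold change 1.298, edgeR adjusted p = 0.0264) and the adhesion molecule gene Amigo2 (log2 fold change 1.09, edgeR adjusted p = 0.0327) were called higher and 0 lower. Of all genes, 3.18% were called against CIE+IgG and 13.5% against Air+IgG. In CIE+IgG against Air+IgG, 0 were called; C3, complement component 3, averaged 8.12 ± 4.58 CPM in CIE+IgG libraries and 3.76 ± 0.550 CPM in Air+IgG libraries (SD, n = 3 each; log2 fold change 1.12, edgeR adjusted p = 0.9997; 0.65 without CIE+IgG library 3), and Serping1, a complement inhibitor, differed by -0.33. C3 was at 8.16, 3.51 and 12.7 CPM in CIE+IgG libraries 1 to 3, whose 10 choroid plexus markers summed to 5104, 3088 and 5783 CPM and whose 12 ependymal markers summed to 189, 103 and 258 CPM; their part in the C3 values was not tested.

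Of the genes reported to be induced by ischaemia (A2-type), 9 of 12 were tested and Sphk1 is one of them. None was called in CIE+IL17 Ab against CIE+IgG, and Ptgs2, which encodes cyclooxygenase-2 and is strongly expressed by hippocampal excitatory neurons, was called lower against Air+IgG. This was 1 of 9, where 13.5% of all genes were called and 6.71% were called lower. Ptgs2 was at 1.81, 3.37 and 14.6 CPM in CIE+IL17 Ab libraries, against 23.9, 42.6 and 26.3 CPM in Air+IgG libraries (log2 fold change -2.22, SE 0.62, edgeR adjusted p = 0.0488). The same 3 CIE+IL17 Ab libraries had summed hippocampal excitatory markers of 821, 1888 and 3488 CPM, and their part in the Ptgs2 values was not tested. Against CIE+IgG the Ptgs2 log2 fold change was -2.07 and did not pass (edgeR adjusted p = 0.101). Tm4sf1, a membrane protein gene, differed by 0.94 against Air+IgG in CIE+IL17 Ab and by 0.57 in CIE+IgG, and passed in neither.

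The gp130-JAK-STAT3 list, 22 genes of which 18 were tested, includes ligands, receptor chains, kinases and feedback inhibitors. In CIE+IL17 Ab against CIE+IgG, 0 of 18 were called, with a median log2 fold change of -0.05. Against Air+IgG, 1 of 18 was called, where 13.5% of all genes were, with a median of 0.03. Il6st, which encodes gp130 itself, was at 187, 167 and 157 CPM in CIE+IL17 Ab libraries, at 126, 125 and 147 CPM in CIE+IgG libraries and at 131, 144 and 136 CPM in Air+IgG libraries. The CIE+IL17 Ab values were above both IgG groups without overlap, but neither difference passed (log2 fold change 0.36 against CIE+IgG with edgeR adjusted p = 0.0811, and 0.31 against Air+IgG with 0.0716). Jak1, a kinase bound to gp130, was called lower against Air+IgG, at 193 ± 20.2 CPM in CIE+IL17 Ab libraries and 242 ± 6.18 CPM in Air+IgG libraries (SD, n = 3 each; log2 fold change -0.33, edgeR adjusted p = 0.0434), and its -0.27 against CIE+IgG did not pass. Socs3, a STAT3 target that feeds back on gp130, averaged 1.85 ± 0.521 CPM in CIE+IL17 Ab libraries, 1.99 ± 0.545 CPM in CIE+IgG libraries and 1.93 ± 0.575 CPM in Air+IgG libraries (SD, n = 3 each), and was named after its values were seen. In CIE+IgG against Air+IgG, 0 of 18 were called; the lowest p-values belonged to Pias3, a STAT3 inhibitor, at a log2 fold change of 0.17, and to the ligand gene Cntf at -0.50.

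Among 14 intermediate filament genes, Gfap and Vim included, the ones called were neurofilaments, which are neuronal. Nefh was called higher in CIE+IL17 Ab, at 189 ± 81.4 CPM, against 69.1 ± 6.60 CPM in CIE+IgG libraries and 62.0 ± 7.61 CPM in Air+IgG libraries (SD, n = 3 each; log2 fold change 1.45 against CIE+IgG with edgeR adjusted p = 0.0372, and 1.60 against Air+IgG with 0.0132). Nefm was called higher against Air+IgG (log2 fold change 0.83, edgeR adjusted p = 0.0235) and was not called against CIE+IgG (0.72, adjusted p = 0.0644). Thus 1 of 14 was called against CIE+IgG, where 3.18% of all genes were, and 2 of 14 against Air+IgG, where 13.5% were. No filament gene was called in CIE+IgG against Air+IgG, where Des (-0.65) and Synm (0.28), the genes of the muscle filament protein desmin and of synemin, had the lowest p-values.

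Of 13 genes tested for sphingosine-1-phosphate synthesis, breakdown and receptors, Sgpp2, a phosphatase that removes the phosphate that sphingosine kinases add, was called higher in CIE+IL17 Ab. Sgpp2 was at 62.5, 42.0 and 32.3 CPM in CIE+IL17 Ab libraries, at 15.7, 17.8 and 22.2 CPM in CIE+IgG libraries and at 14.6, 12.2 and 17.0 CPM in Air+IgG libraries. The CIE+IL17 Ab libraries were all above the others (log2 fold change 1.29 with edgeR adjusted p = 0.0375 against CIE+IgG, and 1.63 with 0.0119 against Air+IgG). Against Air+IgG, S1pr5, a receptor found on oligodendrocytes, and Cers2, a ceramide synthase, were also called higher (log2 fold changes 0.54 and 0.45, edgeR adjusted p = 0.0362 and 0.0242). In all, 1 of 13 was called against CIE+IgG, beside 3.18% of all genes, and 3 of 13 against Air+IgG, beside 13.5%. The summed 12 oligodendrocyte markers were 6557 to 7995 CPM in CIE+IL17 Ab libraries, 4948 to 7823 CPM in CIE+IgG libraries and 4340 to 4932 CPM in Air+IgG libraries, and their part in the S1pr5 and Cers2 values was not tested. In CIE+IgG against Air+IgG, 0 of 13 were called, and Cers2 differed by 0.28.

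Of 14 hyaluronan and CD44 pathway genes tested, 0 were called in CIE+IL17 Ab against CIE+IgG (3.18% of all genes were) and 1 against Air+IgG (13.5% of all genes were). That gene was Hapln2, a hyaluronan link protein of oligodendrocytes, at 36.3 ± 7.10 CPM in CIE+IL17 Ab libraries and 18.1 ± 1.12 CPM in Air+IgG libraries (SD, n = 3 each; log2 fold change 1.01, edgeR adjusted p = 0.0177). Its differences of 0.55 in CIE+IL17 Ab against CIE+IgG and 0.46 in CIE+IgG against Air+IgG did not pass. Rdx, which encodes radixin, a linker of CD44 to actin, differed by 0.30 against CIE+IgG and 0.36 against Air+IgG without passing.

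Calls on these lists depended on single libraries. Against CIE+IgG, the calls of Fbln5 and Sgpp2 were each kept in 3 of 9 fits that left out 1 library, and that of Nefh in 2 of 9; all 3 were lost without CIE+IL17 Ab library 2, CIE+IgG library 1 or 2, or any 1 Air+IgG library, and Nefh also without CIE+IgG library 3 (edgeR adjusted p 0.0504 to 0.194). Against Air+IgG, the call of Sgpp2 was lost without Air+IgG library 3, that of Nefh without Air+IgG library 2 or 3, and that of Nefm without any 1 Air+IgG library. Fbln5, Cers2 and Hapln2 were lost without any 1 Air+IgG library or CIE+IL17 Ab library 2, and Amigo2 and S1pr5 also without CIE+IL17 Ab library 1. Jak1 was kept only without CIE+IL17 Ab library 1 and Ptgs2 only without CIE+IL17 Ab library 3 (edgeR adjusted p of all lost calls 0.0527 to 0.158).

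**Figure D4:**
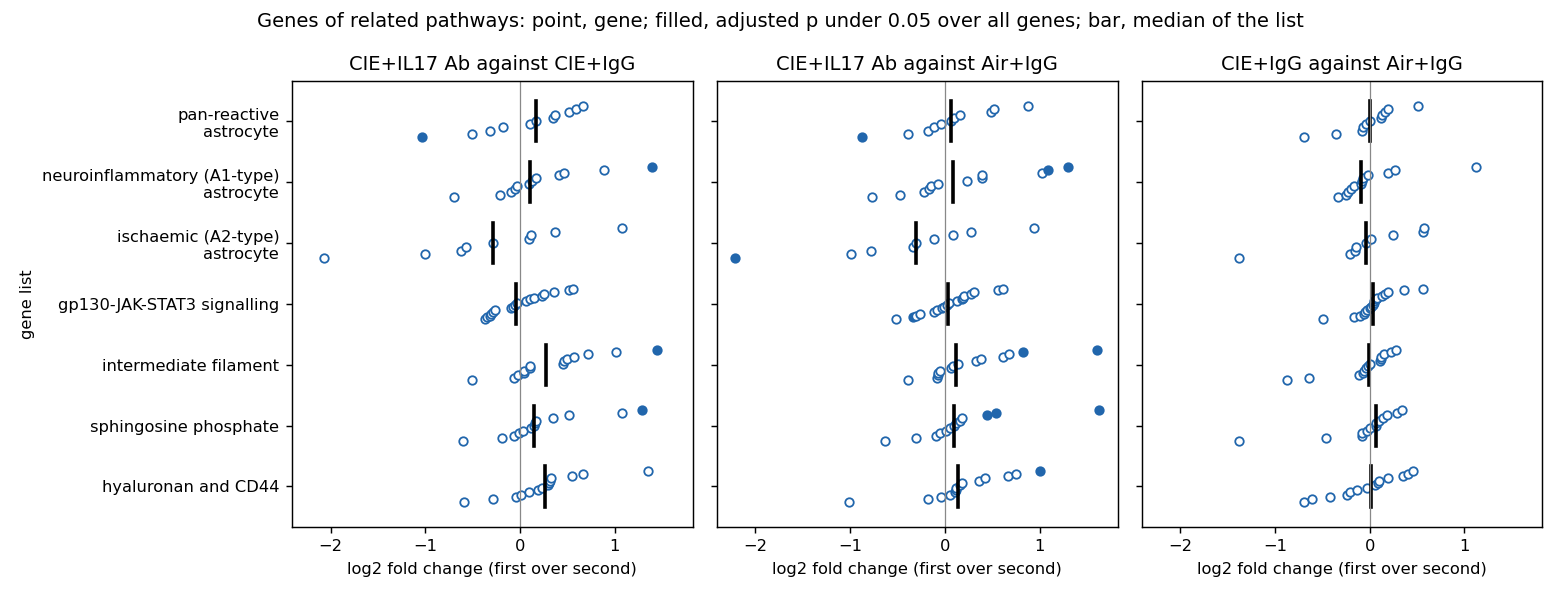
Log2 fold change of every tested gene of 7 lists (points) in the 3 comparisons, with the list median as a bar; filled points passed an adjusted p of 0.05 over all genes. Filled points occur in both CIE+IL17 Ab panels, with Serpina3n the only filled pan-reactive gene, and none occurs in CIE+IgG against Air+IgG.

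Across the 9 libraries, the genes whose log2 CPM followed each member most closely were found among 12122 genes with a mean CPM of at least 5. They were picked as the highest of many Pearson correlations that also contain the group differences and the regional differences between libraries, and are given as a description. For Serpina3n they were Nupl1 (r = 0.987), Ly6e (0.975) and Mapk14 (0.974); for Gfap, Selplg (0.968), Heatr1 (0.962) and Rc3h2 (0.954). Selplg encodes a selectin ligand that in brain is mostly microglial. Vim was followed by Cfp (0.932), Bgn (0.923) and Flna (0.922), Stat3 by Mthfs (0.950), Onecut2 (0.947) and Abcb10 (0.928), and Osmr by Arpp19 (0.922), Ldah (0.897) and Dgcr8 (0.894). Sphk1 was followed by Polr3b (0.936), Gpatch4 (0.934) and Pphln1 (0.921), and Cd44 by Bend5 (0.928), Polr3e (0.920) and Pamr1 (0.919). Sphk1, below that mean, could not be a candidate. Between members, the highest correlation was that of Gfap with Serpina3n (r = 0.896) and the lowest that of Gfap with Cd44 (r = -0.726).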

How the data were processed

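The authors deposited 1 table of unscaled expected counts, made per the submitters' processing notes with STAR 2.5.1a, RSEM 1.3.0 and GRCm38; the annotation release is not given in the sources used here. It holds 14779 genes. Such estimates split reads among genes of similar sequence, and 27.1% of the values have decimals; the third-largest count of each gene is at least 6. Symbols, coordinates and merged exon lengths came from GENCODE M21 on GRCm38, which matched 14628 identifiers.

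Counts were rounded, filtered with edgeR's filterByExpr by group (minimum count 10), scaled by TMM and tested with edgeR 4.0.16 in R 4.3.3 (quasi-likelihood, robust, all 9 libraries in 1 fit with 6 residual degrees of freedom, Benjamini-Hochberg over 14696 genes). Groups follow the sample titles; the series' design text gives 3 mice per group, and nothing further says how the samples were collected. The procedure was tested on simulated counts. Alternatives were DESeq2 1.42.0, limma-voom (limma 3.58.1), other filters and scaling, blocks and left-out libraries; the fits without the 2 libraries rich in Lars2 were added after seeing the data. The counts of 7372658 to 11894628 per library limit precision for low genes such as Sphk1.

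The 7 genes and all gene lists were chosen with earlier results of these data known. Named were the 7 genes; of each pathway list, the genes past an adjusted p of 0.05 and the 2 with the lowest p in each comparison; of the astrocyte list, the 2 most abundant, where the other cell type lists are given as sums; and the 3 genes most correlated with each member. Other genes named (Pou4f1, Lars2, Kcnj10, Gja1, Atp1b2, Slc7a10, Notch3, Kcnj8, Abcc9 and Socs3) were chosen after their values were seen. Listed genes outside the table were not analysed here.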

Additional observations from a re-analysis of the deposited data

How the results depend on the processing

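The numbers of genes and of members called moved more than the fold changes did. In CIE+IL17 Ab against CIE+IgG, the 468 genes called became 1481 with DESeq2, 776 with the label number as a block, 1 in the libraries numbered 54 to 60, 1 with only the 2 groups in the fit and 1293 at a threshold of 0.1, and lay between 0 and 1313 with 1 library left out. Against Air+IgG, the 1990 genes became 2 in the libraries numbered 54 to 60, 1192 with only the 2 groups, 3453 at a threshold of 0.1 and 1067 without the 2 libraries rich in Lars2, and lay between 0 and 2305 with 1 library left out. In CIE+IgG against Air+IgG, 6 genes were called with DESeq2 and 0 under every other setting run, left-out libraries included. Members called against CIE+IgG were 2 with DESeq2, with the label number block, at a threshold of 0.1 and without the libraries rich in Lars2, 0 in the libraries numbered 54 to 60 and with only the 2 groups, and 0 to 2 with 1 library left out. Against Air+IgG they were 0 in the libraries numbered 54 to 60, 2 at a threshold of 0.1 and 0 to 2 with 1 library left out. The causes were not tested, beyond the fewer libraries in the smaller fits.

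Correlations did not show that replicate numbers pair the libraries: those of same-numbered deviations ran from -0.27 to 0.25, and not every library correlated best with its own number. CIE+IgG libraries 2 and 3 did so with Air+IgG (r = 0.25 and 0.19), and 3 libraries per group cannot exclude a pairing. With a replicate block, 14 genes were called against CIE+IgG and 571 against Air+IgG, 0 of them members, and Serpina3n had log2 fold changes of -1.03 and -0.88 (edgeR adjusted p = 0.0999 and 0.0564).

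Some values near 0 changed sign. Cd44 against Air+IgG in CIE+IL17 Ab was 0.0066 with limma-voom and -0.30 to 0.14 with 1 library left out. Without the libraries rich in Lars2, CIE+IgG against Air+IgG gave 0.14 for Stat3 and 0.18 for Vim; their ranges with 1 library left out were -0.13 to 0.14 and -0.20 to 0.17. Vim in CIE+IL17 Ab was -0.13 against Air+IgG in the libraries numbered 54 to 60, and ran from -0.056 to 0.27 against Air+IgG and from -0.043 to 0.28 against CIE+IgG with 1 library left out. Glul against CIE+IgG was -0.15 without the libraries rich in Lars2 and -0.15 to 0.20 with 1 library left out. Without the libraries rich in Lars2, values that moved over 1.5 times without a change of call included those of Vim (0.47 against Air+IgG and 0.28 against CIE+IgG) and Stat3 (0.34 against Air+IgG) and Cd44 (-0.14 against Air+IgG) in CIE+IL17 Ab, and of Gfap (0.23) and Serpina3n (0.28) in CIE+IgG against Air+IgG. Of the other values of the 7 genes, 214 kept direction and side of the threshold outside the left-out libraries, 6 lost and 4 gained a call. All 6 losses were of Serpina3n, whose 2 calls were each kept in 8 of 11 such settings. The other members had no call in the fit of all 9 libraries and so could not lose one. For the other named genes, 412 kept them, 62 lost and 8 gained a call outside the left-out libraries, and 1 changed sign. Sphk1 did not pass the strict filter (CPM above 1 in all 9 libraries) and has no value there.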

Other observations

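Vim and Cd44 are also expressed in meningeal and vascular cells, whose markers differed between libraries. The 15 meningeal fibroblast markers summed to 443, 793 and 664 CPM in CIE+IL17 Ab libraries, 509, 327 and 593 CPM in CIE+IgG libraries and 812, 1212 and 885 CPM in Air+IgG libraries. Air+IgG library 2, with the highest of these sums, also had the highest Vim level, 61.6 CPM, but a Cd44 level of 4.71 CPM, close to the lowest. Against Air+IgG, 4 of the 15 were called lower in CIE+IL17 Ab, where 6.71% of all genes were called lower. The 12 endothelial markers summed to 345 to 392 CPM in CIE+IL17 Ab libraries, 289 to 327 CPM in CIE+IgG libraries and 276 to 351 CPM in Air+IgG libraries, and 0 of them were called in any comparison by edgeR, with 1 and 3 higher at an unadjusted p under 0.05 in CIE+IL17 Ab against CIE+IgG and against Air+IgG. The 10 pericyte and smooth muscle markers summed to 320 to 369 CPM in CIE+IL17 Ab libraries, 267 to 284 CPM in CIE+IgG libraries and 280 to 353 CPM in Air+IgG libraries. Against CIE+IgG, 10 of 10 had a log2 fold change above 0 and 7 were higher without overlap (12.7% of all genes were). Called higher against CIE+IgG was 1 (Notch3), where 3.18% of all genes were called in either direction. Against Air+IgG, 3 were called higher (Notch3, Kcnj8 and Abcc9), where 13.5% of all genes were called in either direction. Ependymal markers, 12 genes, summed to 93, 337 and 284 CPM in CIE+IL17 Ab libraries and 189, 103 and 258 CPM in CIE+IgG libraries. In Air+IgG libraries they summed to 131, 51 and 108 CPM. In both CIE groups the library with the lowest ependymal sum had the lowest Vim level of its group. Air+IgG library 2, with the lowest ependymal sum of all, had the highest Vim level. The part of any of these cells in the Vim and Cd44 values was not tested.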
